A study of Cucumis sativus with 25 samples.

Results

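Day length in the warm was compared in the shoot tips of cucumber seedlings by mRNA sequencing. Of the 21221 genes in the expression table, the comparison covered the 18655 genes with a level of at least 1 FPKM (fragments per kilobase of gene and 1000000 mapped fragments) in at least 3 of the 12 mRNA libraries. No difference between treatments was tested in this choice, but a gene could enter through the 3 libraries of a single treatment. All seedlings were of the inbred line 9930, and the apical tip was cut off under a microscope, with many apices pooled in a replicate. HL seedlings had 16 h of light at 28 °C and 8 h of darkness at 25 °C. HS seedlings had 8 h of light and 16 h of darkness at these temperatures. The cool long-day (LL) and cool short-day (LS) seedlings had the same hours of light at 20 °C and darkness at 15 °C. Each treatment had 3 replicates, which the study describes as biological. The hour of harvest is not given in the sources used here, so hours since lights-on, daily light dose and day length cannot be told apart.

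The shoot apex holds the meristem that forms leaves, axillary buds and floral primordia, and in cucumber day length and temperature act on the sex of the flowers that these primordia become. In plants generally, leaves measure day length through photoreceptors and the circadian clock, and a mobile protein of the FT family carries the signal to the apex. A second, age-dependent route runs through miR156 and the closely related miR157, which cleave mRNAs of SBP-box transcription factors. In Arabidopsis these factors promote the change from the juvenile to the adult phase and the formation of flowers. The gene table gives identifiers of the cucumber 9930 gene models without names, and none of them matched the RefSeq table of the Cucumber_9930_V3 assembly. The account by function therefore rests on genes that the study lists as predicted miRNA targets. The study also sequenced mRNA cleavage products (degradome) from a mix of its treatments and reports cleavage for part of its targets. It lists targets that differed between its treatments, SBP-box genes among them, as having such evidence. That evidence was not used to choose the target lists here. Because the identifiers carry no names, clock, FT-family or meristem marker genes were not identified here. For the same reason the label of shoot apex could not be checked against its markers.

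The mature sequences of the miRNAs to which the target results below refer are shown as the study lists them, 5′ to 3′, with bases 2 to 8, the seed, in capitals.
miR156: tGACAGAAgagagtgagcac
miR157: tTGACAGAagatagagagcac
miR164: tGGAGAAGcagggcacgtgca
miR7741: tGTTATTGtggaagttcttga
No seed was shared in the same frame. With miR157 shifted by 1 base against miR156, 18 of 20 positions were identical. Both miRNAs have a joint target list in the study.

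The 12 libraries were alike in breadth. Between 19045 and 19242 genes had a level above 0 in a library, and the 10 most abundant genes took 3.39–3.75% of the summed FPKM in HL libraries and 3.48–3.65% in HS libraries. Read totals were not among the values used, but low values step by the worth of 1 read, and these steps put the depth of the libraries at 0.98–1.1 times that of HL replicate 1. Over all genes tested, the median difference HL minus HS in log2(FPKM + 1) was -0.02, and 54.7% of genes were lower in HL. With FPKM scaled to equal medians in all libraries this median was 0.03, so its sign depended on the scale. In shoot tips, fewer cells of a kind and less RNA per cell cannot be told apart for any gene below.

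A gene was called when its limma adjusted p was under 0.05 and its ratio of mean FPKM was over 2 in either direction. In HL vs HS, 101 genes were called, which is 0.541% of the genes tested. Of these, 25 rose in HL (0.134%) and 76 fell in HL (0.407%). Without the ratio limit, 207 genes passed (1.11%), 73 higher (0.391%) and 134 lower in HL (0.718%). For 3304 genes (17.7%), the 3 HL libraries did not overlap the 3 HS libraries, with 1263 above (6.77%) and 2041 below (10.9%). A further 889 genes differed over 2-fold in mean without passing the test. The number of calls moved by over 1.5 times with 5 of the 6 warm libraries. It was 46, 154 and 41 without HL replicates 1, 2 and 3, and 45 and 41 without HS replicates 1 and 3. In each of these fits more genes were called lower than higher in HL. It was 22 when the cool libraries did not take part in the estimate of the spread.

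**Figure D1:**
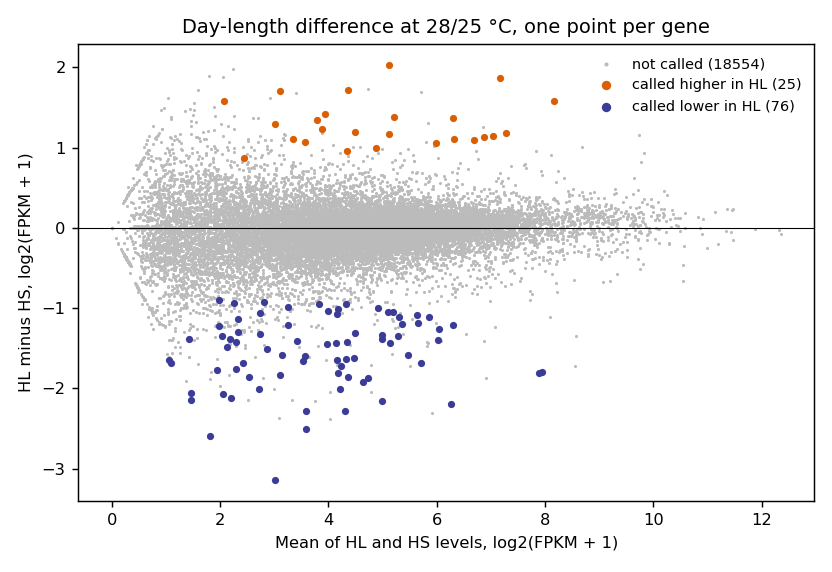
Each point is 1 of the 18655 genes tested, with its mean level over HL and HS libraries on the horizontal axis and its difference HL minus HS on the vertical axis, both as log2(FPKM + 1). The 76 genes called lower in HL reach larger differences than the 25 called higher, and calls occur from low to high levels.

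The genes that fell in HL had a median mean level of 6.93 FPKM in HL and 21.1 FPKM in HS, with a median ratio of 3.12 between HS and HL. Over all genes tested, the median mean level was 20.53 FPKM in HL and 21.45 FPKM in HS. The ratio was 2 to 3 for 34 of the genes that fell, over 3 and up to 4 for 19 and over 4 for 23. Of the last, 5 were listed at 0 in all 3 HL libraries, so no ratio is given for them. The median ratio of 3.12 also leaves these 5 out. The largest ratio of the others was 14.02. The genes that rose in HL had a median mean level of 38.3 FPKM in HL and 12.8 FPKM in HS. Their median ratio between HL and HS was 2.43 and their largest was 4.99. Only 2 of the 25 had a ratio over 4. By level, calls made up 0.242% of the 3307 genes with a larger mean under 5 FPKM, 0.691% of the 5351 from 5 to under 20 FPKM, 0.544% of the 8082 from 20 to under 100 FPKM and 0.627% of the 1915 at 100 FPKM or more. In the lowest of these classes 0 genes were called higher and 8 lower in HL, and in the highest class 8 were called higher and 4 lower. A gene of the lowest class can have entered the comparison through the libraries of a single treatment.

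The called genes were also set against the cool libraries. Of the 76 that fell, HL had the lowest of the 4 treatment means for 57, and for 37 all 3 HL libraries lay below the 9 others. HS had the highest of the 4 means for 51 of the 76, and for 35 all 3 HS libraries lay above the 9 others. Of the 25 that rose, HL had the highest mean for 21, and for 17 its libraries lay above the 9 others. HS libraries lay below all 9 others for 5 of them. These counts describe genes called in HL vs HS, whose separation of HL from HS the call itself required.

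The clearest difference in either direction was that of Csa6M511860.1, which fell in HL. It had 27.2, 27.9 and 24.5 FPKM in HL libraries, against 120.8, 127.0 and 124.9 FPKM in HS libraries. The 3 HL values lay close together and far below every HS value. The difference HL minus HS was -2.19 ± 0.10 (SE) on the log2(FPKM + 1) scale, a ratio of 4.69 between the HS and HL means, with a limma adjusted p of 4.24e-07. In the cool the gene had 150.4, 178.0 and 151.0 FPKM in LL libraries, against 163.1, 152.3 and 127.2 FPKM in LS libraries. LL and LS overlapped, at 0.12 ± 0.10 for LL minus LS (limma adjusted p = 0.862). The interaction, which is the warm difference minus the cool one, was -2.31 ± 0.14 with a limma adjusted p of 1.53e-05.

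Csa4M126480.1 also fell in HL, with 23.9, 26.1 and 22.03 FPKM in HL libraries, against 56.9, 58.4 and 53.9 FPKM in HS libraries. The treatments did not overlap, and the difference was -1.2 ± 0.09 (SE, limma adjusted p = 8.46e-05). In the cool the same gene averaged 44.8 ± 3.3 FPKM in LL and 57.2 ± 4.2 FPKM in LS (SD, n = 3 each), a difference of -0.35 ± 0.09 that did not pass the test (limma adjusted p = 0.275). Its interaction was -0.85 ± 0.13 (limma adjusted p = 0.0415), below the size of 1 needed for a call.

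Among the genes that rose, Csa1M153560.1 had 261.4, 180.9 and 229.9 FPKM in HL libraries, against 36.9, 74.2 and 77.3 FPKM in HS libraries. Both treatments varied widely, but every HL value was far above every HS value. The difference was 1.87 ± 0.22 (SE) on the log2 scale, a ratio of 3.57 (limma adjusted p = 0.0026). With only the HL and HS libraries in the fit the adjusted p was 0.0865. In the cool it had 119.3, 128.1 and 131.2 FPKM in LL libraries, against 55.3, 55.3 and 62.7 FPKM in LS libraries. LL lay above LS without overlap at 1.12 ± 0.22, which did not pass the test over all genes (limma adjusted p = 0.105). The difference between the warm and the cool response was 0.76 ± 0.31 (limma adjusted p = 0.545).

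Csa5M266880.1 rose as well, with 113.7, 123.2 and 100.3 FPKM in HL libraries, against 46.2, 41.0 and 41.2 FPKM in HS libraries. The difference was 1.37 ± 0.17 (SE), a ratio of 2.63 (limma adjusted p = 0.00318). In the cool the gene was far lower, with 8.2, 9.0 and 5.2 FPKM in LL libraries, against 2.5, 1.8 and 1.7 FPKM in LS libraries. Long days were thus higher at both temperatures, and LL minus LS passed the test too, at 1.49 ± 0.17 (limma adjusted p = 0.0127). The interaction was -0.12 ± 0.25 (limma adjusted p = 0.931).

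**Figure D2:**
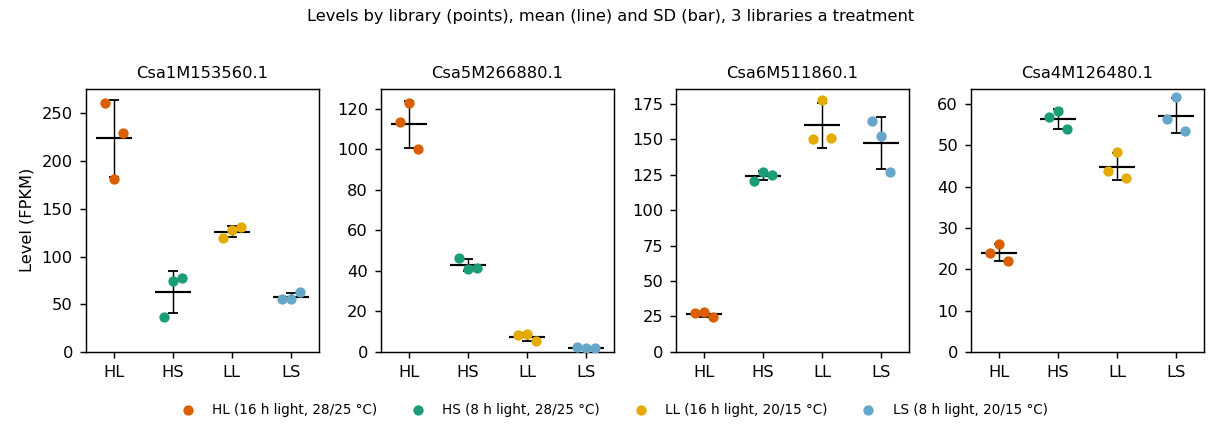
FPKM (vertical axis, from 0, separate scale for each gene) of 4 genes in each library (points) of HL, HS, LL and LS, with the mean (line) and SD (bar) of 3 libraries. Csa6M511860.1 and Csa4M126480.1 are lowest in HL, at 26.5 and 24.0 FPKM on average, while Csa1M153560.1 and Csa5M266880.1 are highest there, at 224 and 112 FPKM.

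Day length had fewer calls in the cool, and few calls for the difference between the temperatures. LL vs LS shares no library with HL vs HS, and 6 genes were called in it (0.0322% of those tested), while 1436 genes had a p under 0.05 before adjustment. The same count in HL vs HS was 2508 (13.4%). The 6 calls became 10 without HS replicate 1, 1 without LL replicate 3 and 0 without LS replicate 3, where 1173 genes had a limma p under 0.05 before adjustment. A noise-based probability called 45 genes here, against 128 for day length in the warm. Of the genes that rose in HL, 18 of 25 were also higher in LL than in LS by sign and 3 were called there. Their median difference was 1.2 for HL minus HS and 0.60 for LL minus LS. Of the genes that fell in HL, 55 of 76 were also lower in LL than in LS by sign and 2 were called there. Their median difference was -1.44 for HL minus HS and -0.23 for LL minus LS. Over all genes tested, the median was -0.02 for HL minus HS and -0.0033 for LL minus LS. Since these genes were chosen for their warm difference, the medians do not compare the temperatures, and the interaction was tested for each gene.

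The interaction was called for 9 genes (0.0482% of those tested), all with a negative term, and 1598 genes had an unadjusted p under 0.05 for it. Of the 9 genes, 6 were among those that fell in HL, and none was among those that rose. The 6 genes had mean levels from 2.60 to 26.5 FPKM in HL, against 14.5 to 124 FPKM in HS. In the cool their means ran from 15.1 to 160 FPKM in LL and from 10.8 to 148 FPKM in LS. In all 6, the 3 HL libraries lay below the 9 other libraries. The call in HL vs HS and the interaction both use the HL and HS libraries. The overlap of the calls and the low place of HL thus follow in part from the choice of genes. For the remaining genes called in HL vs HS, a difference between the warm and the cool response was not called. The number of interaction calls was 37 without HL replicate 2, of which 14 had a positive term, and 3 without HS replicate 1.

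**Figure D3:**
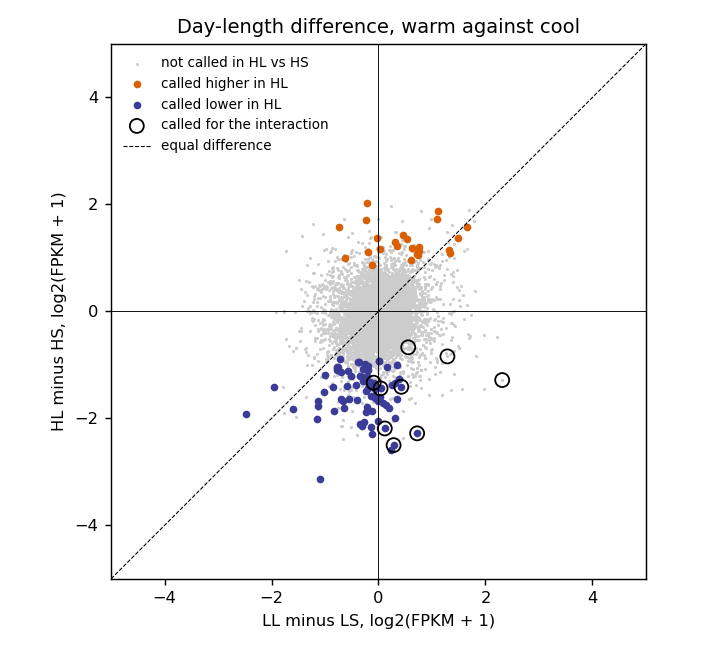
Each point is a gene, with LL minus LS on the horizontal axis and HL minus HS on the vertical axis, both in log2(FPKM + 1), and the dashed line marks equal differences. Genes called lower in HL (76) sit mostly below the dashed line near a cool difference of 0, genes called higher (25) spread toward the line, and the 9 genes called for the interaction (circles) lie below it.

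Some called genes lay next to each other. Of the 100 called genes on a numbered chromosome, 15 (15.0%) had a called gene of the same direction next to them in the order of identifiers, and 0 had one of the opposite direction. Of the 18472 tested genes that were not called, 149 (0.807%) were next to a called gene. These 15 genes made 8 adjacent pairs, of which 7 fell and 1 rose in HL. Csa4M126480.1 was in such a pair. The next identifier averaged 17.2 FPKM in HL and 44.5 FPKM in HS, close to the 24.0 FPKM in HL and 56.4 FPKM in HS of Csa4M126480.1. The most abundant case was a run of 3 genes on chromosome 5, with means of 102, 103 and 0 FPKM in HL, against 372, 385 and 3.53 FPKM in HS. Tandem copies of related genes are common in plant genomes, reads from near-identical copies can be split between them by the counting, and neighbours are then not separate measurements. The part of sequence similarity in these pairs was not tested. By numbered chromosome, calls ran from 0.215% of 1861 tested genes on chromosome 7 to 0.709% of 3104 on chromosome 6, against 0.541% of all genes tested. Among the 83 tested genes without a chromosome number, 1 was called (1.2%).

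Predicted miR156/157 targets were higher in HL in most cases, by less than 2-fold. SBP-box factors are the targets of this miRNA in Arabidopsis, and the study names Csa3M809420.1, Csa3M567830.1 and Csa1M051590.1 as squamosa promoter-binding proteins, the founding name of that family. All 9 listed targets were tested, and 0 were called, since none reached a ratio of 2. At any ratio, 2 of the 9 passed the test as higher in HL, against 0.391% of all genes, and 0 as lower. Neither of these 2 passed with only the HL and HS libraries in the fit. By sign 8 of 9 were higher in HL, where 54.7% of all genes were lower. For 6 of 9 the HL libraries lay above the HS libraries without overlap, against 6.77% of all genes. The median difference of the 9 was 0.43 for HL minus HS and 0.13 for LL minus LS.

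The largest of these differences was in Csa3M809420.1, which had 69.1, 56.0 and 68.8 FPKM in HL libraries, against 41.5, 40.5 and 36.9 FPKM in HS libraries. Every HL value lay above every HS value, at 0.69 ± 0.09 (SE), a ratio of 1.63 (limma adjusted p = 0.00499). Csa6M094760.1 had 79.1, 88.7 and 86.2 FPKM in HL libraries, against 58.2, 54.0 and 48.6 FPKM in HS libraries. It too separated the treatments, at 0.65 ± 0.08 (SE), a ratio of 1.58 (limma adjusted p = 0.00279). Csa3M567830.1 had 72.2, 61.6 and 59.8 FPKM in HL libraries, against 49.4, 50.9 and 41.9 FPKM in HS libraries. Its difference of 0.44 ± 0.10 missed the threshold (limma adjusted p = 0.0505). In the cool, Csa3M809420.1 averaged 87.0 ± 6.4 FPKM in LL and 67.1 ± 1.2 FPKM in LS, and Csa6M094760.1 averaged 95.9 ± 2.0 FPKM in LL and 76.5 ± 2.7 FPKM in LS (SD, n = 3 each). Neither cool difference passed the test, at 0.37 ± 0.09 (limma adjusted p = 0.253) and 0.32 ± 0.08 (limma adjusted p = 0.243). The interaction did not pass for either gene, with limma adjusted p of 0.549 and 0.444.

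The other targets on this list did not pass the test. The most abundant, Csa3M117960.1, averaged 145 ± 15 FPKM in HL and 107 ± 4.5 FPKM in HS, and Csa1M001450.1 averaged 77.0 ± 4.0 FPKM in HL and 59.9 ± 4.4 FPKM in HS (SD, n = 3 each). For both, the 3 HL values lay above the 3 HS values, with limma adjusted p of 0.146 and 0.0976. Csa1M051590.1 averaged 40.1 ± 8.1 FPKM in HL and 29.0 ± 2.9 FPKM in HS and Csa1M074980.1 38.6 ± 10.2 FPKM in HL and 33.7 ± 2.5 FPKM in HS. In Csa1M015680.1, at 73.3 ± 4.3 FPKM in HL and 72.7 ± 2.5 FPKM in HS, and in Csa1M039890.1, at 75.1 ± 3.8 FPKM in HL and 79.3 ± 8.2 FPKM in HS, the treatments overlapped. The miRNAs themselves were read in separate small RNA libraries of the same treatments, as tags per 1000000 clean reads. miR156 had 816, 965 and 1122 in HL libraries, against 1394, 1362 and 2070 in HS libraries. miR157 had 4161, 5026 and 6078 in HL libraries, against 13625, 13755 and 21880 in HS libraries. Both were lower in every HL library than in any HS library. These miRNA values are given as a description.

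**Figure D4:**
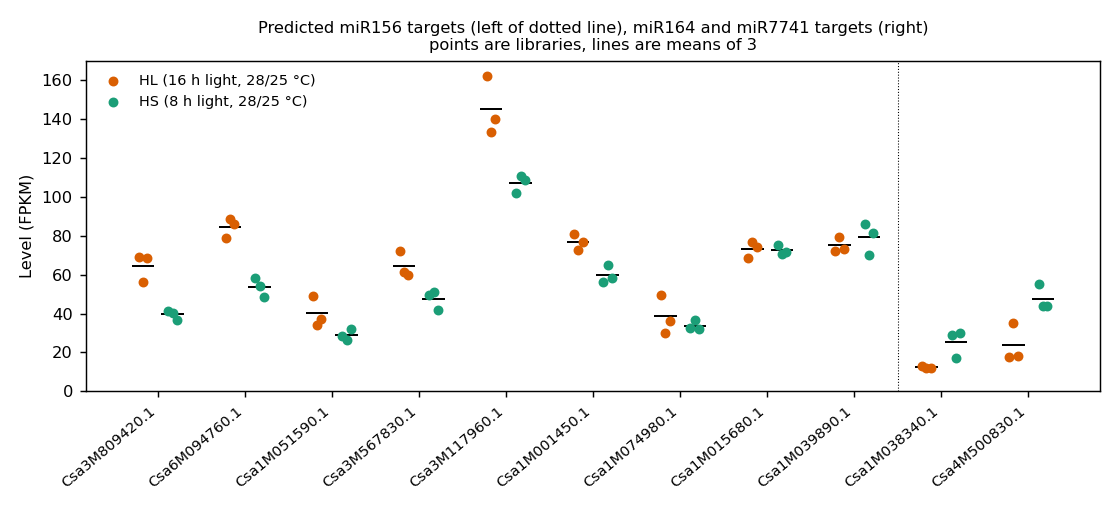
FPKM (vertical axis) in the 3 HL and 3 HS libraries (points, with means as lines) of the 9 predicted miR156/157 targets, ordered by difference, and of Csa1M038340.1 and Csa4M500830.1. HL lies above HS without overlap for 6 of the 9 on the left, and below HS for both genes on the right.

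Predicted miR164 targets were lower in HL by sign. miR164 is known from Arabidopsis to target NAC transcription factors, among them those that set organ boundaries at the apex. Of 7 listed targets 6 were tested, all 6 were lower in HL by sign with a median of -0.49, and 1 was called. Of all genes tested, 54.7% were lower by sign and 0.407% were called lower. That gene, Csa1M038340.1, named in the study as a NAC domain-containing protein, had 13.1, 11.8 and 12.3 FPKM in HL libraries, against 29.0, 17.3 and 30.1 FPKM in HS libraries. HL values were close together and below all HS values, of which replicate 2 was nearest. The difference was -0.94 ± 0.19 (SE), a ratio of 2.06 between HS and HL (limma adjusted p = 0.0416). The call lay near both thresholds. Leaving out 1 library ended it in 9 of 12 fits, and over the 12 the difference ran from -1.19 to -0.81 and the limma adjusted p from 0.00982 to 0.163. In the cool the gene averaged 26.7 ± 5.5 FPKM in LL and 34.7 ± 4.1 FPKM in LS (SD, n = 3 each), a difference of -0.37 ± 0.19. Its interaction was -0.57 ± 0.27 (limma adjusted p = 0.604). The most abundant target, Csa4M629480.1, had 78.6, 55.5 and 66.6 FPKM in HL libraries, against 74.9, 67.3 and 73.0 FPKM in HS libraries, and these overlapped. miR164 itself had 1121, 867 and 1492 tags per 1000000 in HL libraries, against 1676, 849 and 1500 in HS libraries, which also overlapped.

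Csa4M500830.1, which the study lists as a miR7741 target and labels as phloem protein 2-like, fell in HL. Phloem protein 2 is a lectin abundant in the phloem sap of cucurbits. The gene had 17.8, 35.0 and 18.1 FPKM in HL libraries, against 55.3, 43.8 and 44.0 FPKM in HS libraries. HL replicate 2 lay nearest to HS, without overlap. The difference was -1.05 ± 0.22 (SE), a ratio of 2.02 between HS and HL (limma adjusted p = 0.0441). Leaving out 1 library ended the call in 11 of 12 fits, with differences from -1.36 to -0.89 and limma adjusted p from 0.00181 to 0.181. The study had singled this gene out from the same samples. In the cool the gene had 26.8, 21.9 and 29.6 FPKM in LL libraries, against 38.7, 43.5 and 51.9 FPKM in LS libraries. LL was below LS without overlap, at -0.75 ± 0.22 (limma adjusted p = 0.337). The interaction was -0.29 ± 0.31 (limma adjusted p = 0.843).

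The miR7741 list came from 1 prediction tool and was taken up after the values of Csa4M500830.1 had been seen. Of its 20 genes 15 were tested, 1 was called, 10 were lower and 5 higher in HL by sign, and the median difference was -0.11. Of all genes tested, 0.541% were called and 54.7% were lower by sign. Csa4M501830.1, the target with the largest difference, had 4.9, 12.98 and 6.2 FPKM in HL libraries, against 34.5, 30.7 and 16.9 FPKM in HS libraries. Its difference of -1.69 ± 0.40 missed the threshold (limma adjusted p = 0.0686). It was called without HL replicate 2 (limma adjusted p = 0.0264), with a replicate block (0.0213) and by a noise-based probability, but in no other alternative. Leaving out 1 library thus gave a call in 1 of 12 fits. Over these fits the difference ran from -2.06 to -1.44 and the limma adjusted p from 0.0264 to 0.252. In the cool it averaged 6.20 ± 2.4 FPKM in LL and 6.85 ± 3.4 FPKM in LS (SD, n = 3 each), both near the HL mean of 8.03 FPKM and below the HS mean of 27.4 FPKM. The interaction of this gene did not pass the test, at -1.59 ± 0.57 (SE, limma adjusted p = 0.471). Csa4M502330.1, from the same stretch of chromosome 4, had 1.24, 1.15 and 0 FPKM in HL libraries, against 2.42, 2.36 and 2.31 FPKM in HS libraries, and was listed at 0 in all LL and LS libraries. Its HS libraries alone met the level needed to be tested. miR7741 was rare, with 9.94, 8.09 and 12.2 tags per 1000000 in HL libraries, against 19.7, 17.2 and 25.8 in HS libraries. Every HL library was below every HS library, so the miRNA and its listed target Csa4M500830.1 were both lower in HL. A relation between them was not tested.

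Targets of the conserved miRNAs other than miR164 gave no call. Over all 17 conserved miRNAs, with miR156 and miR164 included, 66 of the 67 listed targets were in the table and 63 were tested. Of the 63, 0 were called higher and 1 lower in HL, 33 were higher and 30 lower by sign, and their median difference was 0.01. Over all genes tested, 0.134% were called higher and 0.407% lower. At any ratio 2 passed as higher and 1 as lower, all of them genes already described, against 0.391% and 0.718% of all genes. For 12 of the 63 the HL libraries lay above the HS libraries and for 7 below, against 6.77% and 10.9% of all genes. In the sentences that follow, the role of each family is that of its Arabidopsis targets, and levels are means ± SD (n = 3) in FPKM. The named genes are the most abundant listed targets, apart from Csa5M175970.1.

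Several lists bear on the meristem and on hormones. For miR166, whose targets are HD-ZIP III factors that set the upper side of leaves and maintain the meristem, 5 targets were tested with a median difference of -0.06. Csa6M525430.1 averaged 152 ± 21 FPKM in HL and 150 ± 4.6 FPKM in HS, and Csa6M141360.1 78.1 ± 5.0 FPKM in HL and 81.7 ± 7.8 FPKM in HS. For miR160, which targets auxin response factors that repress transcription, the median over 5 targets was 0.12. Csa6M445210.1 averaged 36.5 ± 1.6 FPKM in HL and 32.4 ± 3.1 FPKM in HS, and Csa6M141390.1 28.6 ± 2.1 FPKM in HL and 33.3 ± 0.78 FPKM in HS. For miR167, which targets activating auxin response factors, 2 targets were tested. Csa7M379090.1 averaged 60.3 ± 9.9 FPKM in HL and 75.5 ± 5.0 FPKM in HS, and Csa6M538600.1 14.4 ± 4.0 FPKM in HL and 15.3 ± 2.4 FPKM in HS. For miR393, which targets auxin receptors of the TIR1 family, Csa3M597350.1 averaged 455 ± 54 FPKM in HL and 447 ± 21 FPKM in HS, and Csa7M393970.1 143 ± 10.5 FPKM in HL and 134 ± 2.7 FPKM in HS. None of these targets passed the test, and the differences in the 4 lists ran from -0.33 to 0.35.

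In the lists tied to flowering, growth and small RNA pathways, no target passed the test either. For miR172, which acts on AP2-like repressors of flowering, 6 targets were tested, 3 higher and 3 lower in HL by sign, with differences from -0.37 to 0.60. The largest was in Csa5M175970.1, at 16.7 ± 1.9 FPKM in HL and 10.7 ± 1.7 FPKM in HS, without overlap (limma adjusted p = 0.0842). Csa6M296960.1 averaged 59.3 ± 12.2 FPKM in HL and 50.8 ± 9.0 FPKM in HS, and Csa6M491020.1 43.3 ± 2.8 FPKM in HL and 39.9 ± 5.1 FPKM in HS. The target of miR168, which controls the silencing protein ARGONAUTE1, was Csa1M031900.1, with 527 ± 31 FPKM in HL and 451 ± 23 FPKM in HS. Its 3 HL values lay above its 3 HS values, but the difference of 0.22 ± 0.08 did not pass (limma adjusted p = 0.214). For miR171, which targets GRAS factors of the meristem, Csa3M020600.1 averaged 95.1 ± 2.1 FPKM in HL and 80.3 ± 8.8 FPKM in HS, and Csa6M109640.1 47.5 ± 4.5 FPKM in HL and 42.8 ± 3.7 FPKM in HS. For miR396, which targets growth-regulating factors, Csa3M047900.1 averaged 73.4 ± 2.3 FPKM in HL and 72.2 ± 9.0 FPKM in HS, and Csa6M397170.1 34.9 ± 2.5 FPKM in HL and 31.7 ± 4.4 FPKM in HS. For miR390, Csa4M166920.1 averaged 37.4 ± 1.7 FPKM in HL and 27.6 ± 5.9 FPKM in HS, without overlap and at 0.45 ± 0.15 (limma adjusted p = 0.187). For miR394, which targets an F-box protein, Csa6M087700.1 averaged 46.5 ± 5.3 FPKM in HL and 42.9 ± 4.7 FPKM in HS, and Csa5M184300.1 28.6 ± 3.1 FPKM in HL and 23.2 ± 0.55 FPKM in HS.

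The remaining lists concern nutrients and copper proteins. For miR169, which targets NF-YA factors, Csa6M091950.1 averaged 70.3 ± 5.6 FPKM in HL and 61.2 ± 22.2 FPKM in HS, and Csa1M613580.1 34.0 ± 3.9 FPKM in HL and 31.4 ± 4.1 FPKM in HS. For miR395, which acts in sulfate uptake and assimilation, Csa3M144230.1 averaged 104 ± 7.7 FPKM in HL and 97.9 ± 8.1 FPKM in HS, and Csa2M215520.1 4.84 ± 0.38 FPKM in HL and 5.87 ± 1.2 FPKM in HS. For miR397, which targets laccases, Csa1M071830.1 averaged 10.8 ± 1.3 FPKM in HL and 18.1 ± 6.5 FPKM in HS, and Csa3M732490.1 9.41 ± 0.86 FPKM in HL and 8.66 ± 0.70 FPKM in HS. The single miR408 target, Csa5M585970.1, averaged 9.26 ± 1.4 FPKM in HL and 11.03 ± 0.97 FPKM in HS. For miR2111, which targets an F-box protein, Csa6M330990.1 averaged 43.6 ± 5.0 FPKM in HL and 41.5 ± 4.0 FPKM in HS, and Csa3M586950.1 34.1 ± 1.4 FPKM in HL and 35.0 ± 4.3 FPKM in HS. The medians of these 5 lists lay between -0.23 and 0.11, and 0 of their targets passed the test.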

How the data were processed

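The authors aligned paired-end mRNA reads to the cucumber 9930 reference genes, with Bowtie and RSEM named in the submitters' processing notes without versions, and deposited FPKM per gene. They also deposited miRNA tag counts, printed here per 1000000 of the study's clean reads and not tested. The tested genes (FPKM of 1 or more in 3 or more libraries) were fitted with limma 3.58.1 (trended variance, R 4.3.3) on log2(FPKM + 1) in all 12 libraries, 1 coefficient per treatment, with 2-sided tests and Benjamini-Hochberg adjustment over all genes tested. A fold change on this scale understates the change of low genes. The interaction needed a term over 1 in size. The script was tested on simulated data. Other summaries used Python 3.11.15 and pandas 2.3.3.

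The members and lists were chosen with earlier results of these data known. The rule for named genes was the 12 smallest p per direction among called genes without overlap and the 3 smallest p per direction among interaction calls. Since identifiers carry no names, 2 genes per direction are given in all. Per target list it was the called genes, or else the 2 most abundant. The other predicted miR156/157 targets, the miR7741 targets, Csa4M629480.1 and Csa5M175970.1 were named after their values were seen. Target lists hold genes predicted by both psRobot and TargetFinder with a score of 3 or less, except that of miR7741 (psRobot alone). Lists by annotation keyword could not be applied. Deviations of libraries with the same replicate number were only weakly correlated, with values given below. The alternatives were a pseudocount of 0.1, other filters, scaling to equal medians, no ratio limit, the warm libraries alone, a replicate block, a constant variance prior, a noise-based probability, and each library left out. Alternatives for LL vs LS, and leaving out LL and LS libraries, were chosen after seeing the data.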

Additional observations from a re-analysis of the deposited data

Results flagged for a closer look

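The response to day length differed between temperatures by the test of the interaction for 11 genes, of which 9 also had a term over 1 in size, each of the 9 with a more negative difference in the warm. For Csa6M511860.1 the interaction was -2.31 ± 0.14 (SE, limma adjusted p = 1.53e-05), with all 3 HL libraries below the 9 others. For Csa4M126480.1 it was -0.85 (limma adjusted p = 0.0415), under the size of 1 needed to be among the 9. Both genes were chosen by their difference between HL and HS, which is part of the interaction.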

How the results depend on the processing

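The number of genes called in HL vs HS was 101. It was between 73 and 128 with a pseudocount of 0.1, other filters, equal medians, a constant variance prior, a replicate block or a noise-based probability. It was 207 without the ratio limit and 22 with the HL and HS libraries alone. With equal medians, 30 genes were called higher and 59 lower in HL, against 25 and 76 in the main fit. Only 68 of the 128 calls of the noise-based probability were among the 101. In LL vs LS the 6 calls became 3 with a pseudocount of 0.1, 45 with the noise-based probability and 0 in limma with a constant variance prior, where 1424 genes had an unadjusted p under 0.05. The 9 interaction calls became 5 without the filter and 5 with the constant variance prior. Leaving out each library in turn gave 41 to 154 calls in HL vs HS, 0 to 10 in LL vs LS and 3 to 37 for the interaction. The 0 in LL vs LS came without LS replicate 3, with 1173 genes at an unadjusted p under 0.05 in limma.

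With the replicate number as a block, 82 genes were called in HL vs HS (75 of them among the 101), 4 in LL vs LS and 6 for the interaction. Deviations from the treatment means correlated at 0.0236 on average between libraries of the same number and at -0.0118 between others, and 3 of the 6 HL and HS libraries correlated best with their own number, so the numbers were not taken to pair the samples. With the block the call of Csa4M500830.1 was lost (limma adjusted p = 0.0787) and Csa4M501830.1 was called (0.0213), as it was with the noise-based probability.

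Of the genes named, Csa6M511860.1, Csa4M126480.1 and Csa5M266880.1 kept their calls under every alternative run. Csa1M153560.1 lost its call with the HL and HS libraries alone. In that fit, Csa3M809420.1 and Csa6M094760.1 did not pass the test at any ratio either. Csa1M038340.1 was not called without the filter, with equal medians, with the HL and HS libraries alone or with a constant variance prior, nor was Csa4M500830.1, which also lost its call with a pseudocount of 0.1. Some genes that were not called changed sign under an alternative. Csa3M586950.1 was at 0.03 with equal medians. With each library left out, the difference HL minus HS ran from -0.08 to 0.06 in that gene, from -0.03 to 0.06 in Csa1M015680.1, from -0.03 to 0.33 in Csa1M074980.1, from -0.09 to 0.1 in Csa6M525430.1, from -0.26 to 0.13 in Csa6M538600.1, from -0.04 to 0.51 in Csa6M091950.1, from -0.07 to 0.1 in Csa3M597350.1, from -0.07 to 0.11 in Csa3M047900.1 and from -0.01 to 0.15 in Csa6M330990.1. The cause of these changes was not tested. The FPKM values do not hold read totals, so no counting error could be given, and precision rests on 3 libraries a treatment.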
